A study of Mus musculus with 20 samples.

Results

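The 39 genes described here encode the transcription factor NRF2, its inhibitor KEAP1, and the enzymes that remove peroxides and superoxide or supply glutathione, thioredoxin and NADPH in mouse bone marrow cells. They were taken from a named list, using for each symbol the transcript row with the largest total count. All 39 were found among the 20377 gene symbols of the count table. Fancd2-/- mice lack a protein of the Fanconi anemia DNA crosslink repair pathway, and oxymetholone is a synthetic androgen given to patients with that disease. The question set by the design was how gene expression in Fancd2-/- marrow responds to oxymetholone.

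All animals were males of the 129S4 strain, aged 4 months. Chow with 300 mg oxymetholone per kg, or placebo chow, was fed for 3 months from weaning. KSL cells, which are cKit+ Sca1+ Lin- and hold the hematopoietic stem and progenitor cells, came in 4 groups of 3 libraries, namely Fancd2-/- on oxymetholone, Fancd2-/- on placebo, wild type on oxymetholone and wild type on placebo. Each KSL library pooled sorted cells of 5 mice. Erythroblasts were Ter119+ cells with high CD71 and high forward scatter from 1 mouse per library, with 3 libraries from wild-type mice on oxymetholone and 3 from wild-type mice on placebo. Fancd2-/- erythroblasts were not analysed here. Whole bone marrow was represented by 1 library of each genotype on placebo, each combined from 5 mice.

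NRF2, the product of Nfe2l2, is held in the cytoplasm and marked for degradation by KEAP1 until oxidants or electrophiles modify KEAP1. It then enters the nucleus, pairs with small MAF proteins and binds antioxidant response elements upstream of genes for glutathione synthesis, thioredoxin recycling, quinone reduction and NADPH supply. FOXO factors control a further set of antioxidant genes. Stem cells are kept at a low oxidant level, whereas erythroblasts make heme and hemoglobin and carry a heavy load of peroxide.

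Summed over the rows kept, 1 per gene symbol, depth was 10777291 to 121347124 counts in KSL libraries, 17177255 to 20816422 counts in erythroblast libraries and 100192495 to 106889478 counts in whole marrow. Fancd2 itself measured 6.59 to 8.73 CPM (counts scaled to a common library total) in the 6 Fancd2-/- KSL libraries and 16.8 to 23.5 CPM in the 6 wild-type KSL libraries, with no overlap, so transcript remained in the mutant libraries. In CPM of total counts, which all marker sums use, KSL markers summed to 0.506 to 1.05 CPM in wild-type placebo erythroblasts and 3832 to 4422 CPM in wild-type placebo KSL cells, with Meis1 at 0 in every one of those erythroblast libraries. The 10 erythroid markers summed to 63720 to 68830 CPM in the same erythroblasts and 57.0 to 98.7 CPM in the KSL cells. The third Fancd2-/- placebo KSL library stood apart from the other 11. Short transcripts were relatively high in it, with a slope of log2 CPM deviation on log2 transcript length of -0.247, against -0.045 to 0.106 in the other KSL libraries. The 39 genes have a median transcript length of 2218 bases, against 2817 bases for all tested KSL genes, and their median deviation from the KSL mean was 0.305 log2 units in that library and -0.112 to 0.074 in the others. Its 7 stromal and fibroblast markers summed to 209.5 CPM, against 67.4 to 105.9 CPM in the other KSL libraries. In the second Fancd2-/- placebo library the erythroid markers summed to 273.9 CPM, against 49.8 to 98.7 CPM in the others. Sums of the 8 KSL markers ran from 2757 to 3593 CPM across Fancd2-/- KSL cells (6 libraries) and from 3832 to 4422 CPM across wild-type KSL cells (6 libraries), with no overlap. Over both diets 2 of the 8 fell and 0 rose, where 2.22% of all genes fell and 1.49% rose. The 5 T and NK cell markers summed to 157.9 to 246.1 CPM in Fancd2-/- and 108.0 to 169.7 CPM in wild-type KSL libraries. Up to 3 of the 5 were at 0 in a Fancd2-/- library and up to 4 in a wild-type library. The highest wild-type sum, 169.7 CPM, came from 1 gene, with the other 4 at 0. Cd3e was at 0 in every wild-type KSL library. Only 1 of the 5 was tested, so the sums do not describe the 5 as a set. That gene rose over both diets, where 1.49% of all genes rose. For genotype over both diets, 9 of 9 tested erythroid and 8 of 10 neutrophil granule markers lay above 0 (median log2 0.53 and 0.63). So did 3 of 3 mast cell and basophil and 3 of 4 stromal markers, against 49.1% of all genes. In contrast, 2 of 6 B cell, 2 of 5 megakaryocyte and 3 of 7 monocyte and macrophage markers did. None of the markers in these 7 lists was called, where 3.71% of all genes were. The part of the markers in the genotype differences given for Txn1, Prdx1, Osgin1 and other genes was not tested. Levels in KSL cells, in erythroblasts and in the comparison between them were scaled separately, so CPM of the same library differ between these comparisons.

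**Figure D1:**
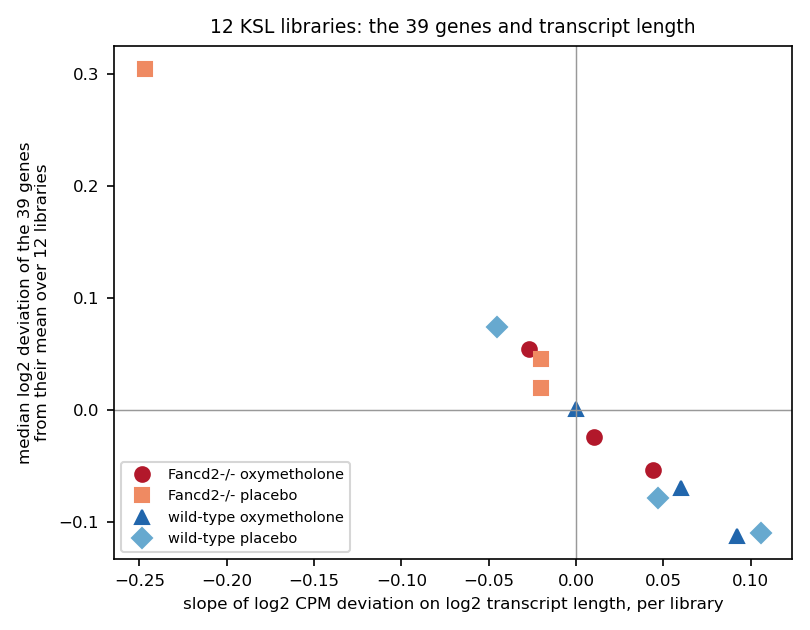
Each point is 1 of the 12 KSL libraries, with the slope of log2 CPM deviation on log2 transcript length on the x axis and the median log2 deviation of the 39 genes on the y axis. The third Fancd2-/- placebo library, at -0.247 and 0.305, lies far from the other 11.

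Among these genes, thioredoxin had the smallest p for genotype in KSL cells. Txn1 (chr4:57956245-57969283, minus strand, mm9) encodes the cytosolic thioredoxin that hands electrons to peroxiredoxins. It was at 331.9, 336.1 and 243.1 CPM in Fancd2-/- cells on oxymetholone and at 334.2, 301.7 and 354.7 CPM in Fancd2-/- cells on placebo. It was at 267.7, 220.2 and 221.8 CPM in wild-type cells on oxymetholone and at 209.4, 228.9 and 220.6 CPM in wild-type cells on placebo. Of the 6 Fancd2-/- libraries, 5 lay above every wild-type library, and the lowest lay between them. Averaged over both diets, Txn1 rose in Fancd2-/- cells by a log2 change of 0.47 ± 0.10 (SE), with an adjusted p of 0.0204 in edgeR's quasi-likelihood test. The edgeR tests over both diets treated libraries paired by a shared flow cytometer setting as independent. Txn1 was the 1 member called of 39 in that comparison, against 3.71% of all 13259 genes tested, and 1.49% called higher. Of the 39 members, 5 had an unadjusted p under 0.05, against 21% of all genes.

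The Txn1 call depended on the libraries and the fit. With pairs of libraries as a replicate block in limma, its log2 change was 0.47 with an adjusted p of 0.0662, and on the deposited normalised matrix it was 0.45 with an adjusted p of 0.0566. Leaving out each of the 12 libraries in turn gave log2 changes of 0.45 to 0.56 and adjusted p-values of 0.0049 to 0.0675, and the call was lost in 6 of 12 cases. Those were Fancd2-/- oxymetholone replicate 1 (0.0521) or 2 (0.0603), wild-type oxymetholone replicate 2 (0.0673) or 3 (0.0675), and wild-type placebo replicate 1 (0.063) or 2 (0.0502). Without the third Fancd2-/- placebo library, the log2 change was 0.45 and the adjusted p 0.025. With length and GC trends removed it was 0.30 with an adjusted p of 0.0153.

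The peroxiredoxins, which reduce peroxides at a reactive cysteine and are recycled by thioredoxin, gave the next values. Prdx1, a cytosolic peroxiredoxin, was at 387.2, 414.9 and 302.1 CPM in Fancd2-/- cells on oxymetholone and at 426.9, 356.9 and 562.7 CPM in Fancd2-/- cells on placebo, against 345.5, 271.6 and 304.7 CPM in wild-type cells on oxymetholone and 319.9, 289.4 and 288.8 CPM in wild-type cells on placebo. The third Fancd2-/- placebo library held the highest value, and the groups on oxymetholone overlapped. Its log2 change over both diets was 0.42 ± 0.12 (SE), with an adjusted p of 0.0632 in edgeR. DESeq2 called it, with an adjusted p of 0.0135, and limma voom with sample quality weights did so with 0.00802. Of all genes, those 2 fits called 578 and 1060 higher, against 198 in edgeR. With pairs as a replicate block in limma the adjusted p of Prdx1 was 0.17. With each library left out in edgeR, its log2 change lay between 0.33 and 0.50 and its adjusted p between 0.027 and 0.168. In edgeR it was called without Fancd2-/- oxymetholone replicate 3 (adjusted p = 0.027) and without Fancd2-/- placebo replicate 2 (adjusted p = 0.0375). The next in rank were Prdx4, the peroxiredoxin of the endoplasmic reticulum, at 0.37 ± 0.14 (adjusted p = 0.147, edgeR), Gstp1, a glutathione transferase, at 0.32 ± 0.12 (adjusted p = 0.158, edgeR), and Sod2, the mitochondrial superoxide dismutase, at 0.20 ± 0.09 (adjusted p = 0.196, edgeR).

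In placebo-fed KSL cells alone, 0 of 39 members were called by edgeR, against 1.28% of all genes. In edgeR 7 had an unadjusted p under 0.05, against 19.6% of all genes. DESeq2 and limma voom each called 2 members, Txn1 and Prdx1. Of all genes, they called 815 and 1412, against 170 in edgeR. Txn1 averaged 330.2 ± 26.8 CPM in Fancd2-/- and 219.7 ± 9.81 CPM in wild-type cells (SD, n = 3 each), a log2 change of 0.59 ± 0.14 (SE) with an adjusted p of 0.0555 in edgeR. Prdx1 averaged 448.8 ± 104.7 CPM in Fancd2-/- and 299.4 ± 17.8 CPM in wild-type cells (SD, n = 3 each), a log2 change of 0.58 ± 0.17 with an adjusted p of 0.0961 in edgeR. Without the third Fancd2-/- placebo library the Prdx1 log2 change was 0.40 (adjusted p = 0.225, edgeR) and that of Txn1 was 0.54 (adjusted p = 0.116, edgeR). Gstp1, Prdx4 and Sod2 followed at 0.44 ± 0.17, 0.48 ± 0.20 and 0.29 ± 0.12 on the log2 scale, with adjusted p of 0.19, 0.198 and 0.209 in edgeR.

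Across the list on placebo, 30 of 39 members had a log2 change above 0, with a median of 0.14, against 48.4% of all genes and a median of -0.01. By role, 11 of 12 thioredoxin and peroxiredoxin genes and 5 of 5 glutathione supply genes were above 0, while both NRF2 switch genes were below. Without the third Fancd2-/- placebo library, 24 of 39 were above 0 and the median was 0.09. Groups did not overlap for 5 members, against 25.3% of all genes. They were Txn1, Prdx1, Sod2 and Prdx3, a mitochondrial peroxiredoxin, on the high side, and Foxo3 on the low side. Foxo3, a forkhead factor that controls antioxidant genes in stem cells, was at 6.53, 10.2 and 9.39 CPM in Fancd2-/- cells and at 11.2, 11.4 and 13.3 CPM in wild-type cells on placebo, a log2 change of -0.44 ± 0.25 (adjusted p = 0.339, edgeR).

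In oxymetholone-fed KSL cells 0 of 39 members were called, against 0.128% of all genes (0.0302% higher), and 1 member, Txn1, had an unadjusted p under 0.05, against 5.57% of all genes. Txn1 averaged 303.7 ± 52.5 CPM in Fancd2-/- and 236.6 ± 27.0 CPM in wild-type cells (SD, n = 3 each), a log2 change of 0.36 ± 0.14 with an adjusted p of 0.712 in edgeR. DESeq2 called 0 members and limma voom 1, Txn1, with an adjusted p of 0.0383. Of all genes, limma voom called 20 higher and 24 lower. Prdx1 (0.26), Slc7a11, the cystine importer (-0.71), Prdx4 (0.26) and Gclm, the modifier subunit of glutamate-cysteine ligase (0.17), came next on the log2 scale, each with an adjusted p of 0.999 in edgeR. The groups did not overlap for 1 member, Msra, on the high side, against 12.4% of all genes. The median of the 39 was 0.07, against 0.01 for all genes.

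Of the 61 other genes of the pathway on a separate list, 57 were tested in KSL cells, and over both diets 0 rose, 2 fell and 55 were not called, where 2.22% of all genes fell, so the count is near the background. Osgin1, an oxidative stress response gene that NRF2 controls in human cells, was at 15.4, 16.5 and 19.6 CPM in Fancd2-/- cells on oxymetholone and at 16.7, 17.9 and 14.8 CPM in Fancd2-/- cells on placebo. It was at 24.6, 27.5 and 23.8 CPM in wild-type cells on oxymetholone and at 26.0, 30.5 and 28.8 CPM in wild-type cells on placebo. All 6 Fancd2-/- libraries lay below all 6 wild-type libraries, which held for 3.61% of all genes in either direction and for 0 of the 39 members. Osgin1 fell by 0.67 on the log2 scale over both diets (SE 0.10, adjusted p = 0.00344, edgeR), and its adjusted p stayed between 0.00276 and 0.0166 when each library was left out. On placebo alone it fell by 0.79 (adjusted p = 0.02, edgeR), a call that 5 of 6 left-out libraries ended (adjusted p up to 0.102). Maff, a small MAF partner of NRF2, fell by 0.68 over both diets (SE 0.17, adjusted p = 0.0462, edgeR), and that call was lost in 11 of 12 cases when a library was left out (adjusted p up to 0.129). It was also lost with pairs as a replicate block (adjusted p = 0.0998), under median-of-ratios scaling (0.0521), with summed rows (0.0534), with length and GC trends removed (0.0906) and on the deposited matrix (0.065).

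**Figure D2:**
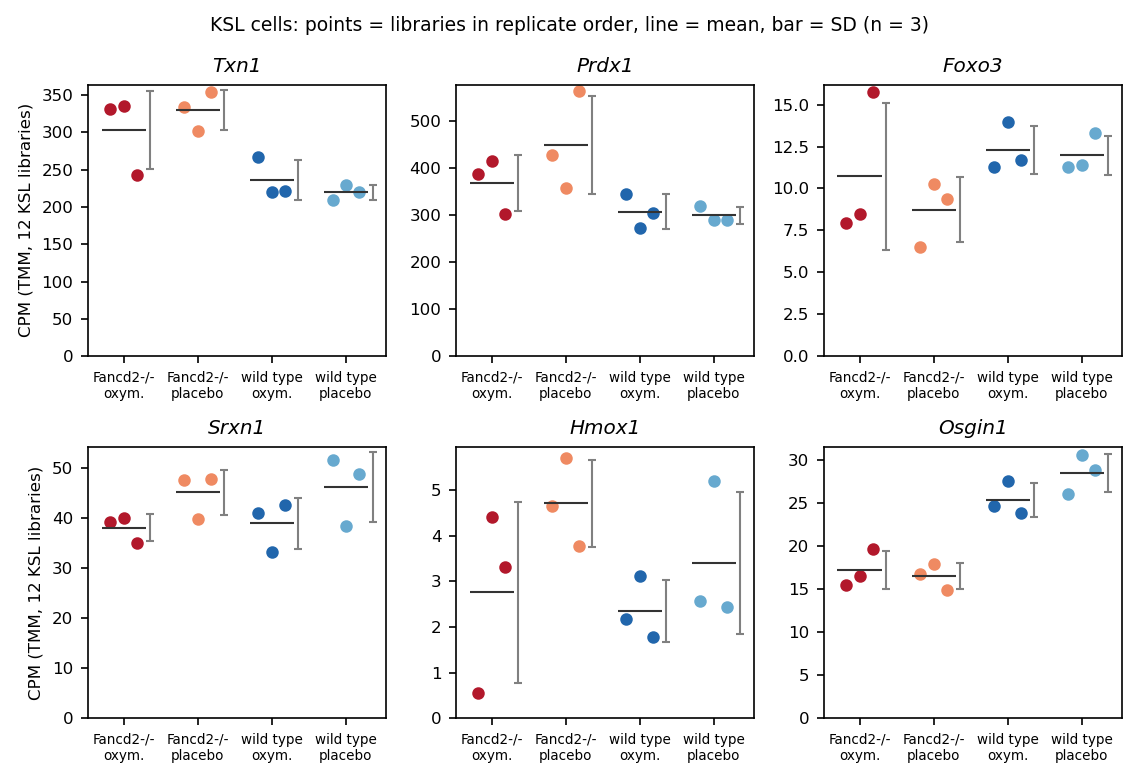
CPM of Txn1, Prdx1, Foxo3, Srxn1, Hmox1 and Osgin1 in the 12 KSL libraries (y axis) by group (x axis), with the mean as a line and the SD of 3 libraries as a bar. Osgin1 is at 14.8 to 19.6 CPM in all 6 Fancd2-/- libraries, below the 23.8 to 30.5 CPM of the wild-type libraries, and 5 of 6 Fancd2-/- libraries exceed every wild-type library for Txn1.

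Oxymetholone was compared with placebo within pairs of KSL libraries that shared a flow cytometer setting, 3 pairs per genotype. In Fancd2-/- cells 0 of 39 members were called, where 0% of all genes were. One member had an unadjusted p under 0.05, against 6.81% of all genes, and DESeq2 and limma voom also called 0 members. That member was Hmox1, the enzyme that breaks down heme. It was at 0.546, 4.41 and 3.31 CPM on oxymetholone and at 4.65, 5.69 and 3.78 CPM on placebo, in the order of the pairs. The value on oxymetholone was the lower one in 3 of 3 pairs, most of all in the first, and the groups overlapped. The log2 change was -0.91 ± 0.41 (adjusted p = 0.688, edgeR), and it lay between -1.28 and -0.27 with each pair left out.

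Srxn1, sulfiredoxin, which repairs overoxidised peroxiredoxins, had a log2 change of -0.25 ± 0.12 in Fancd2-/- KSL cells. It was at 39.2, 40.0 and 34.9 CPM on oxymetholone and at 47.6, 39.8 and 47.8 CPM on placebo. The values of the second pair nearly coincided, and those of the other pairs were lower on oxymetholone. Tkt, transketolase of the pentose phosphate pathway, had a log2 change of 0.32 ± 0.17, Slc7a11 of -0.92 ± 0.51 and Sod1, the cytosolic superoxide dismutase, of -0.22 ± 0.13. All 4 had an adjusted p of 0.688 in edgeR. With 1 pair left out, the log2 change lay between 0.02 and 0.59 for Tkt, between -1.67 and -0.20 for Slc7a11, between -0.32 and -0.03 for Sod1 and between -0.36 and -0.13 for Srxn1. Tkt was at 1155.0 CPM in the first pair's oxymetholone library, against 609.5 CPM in its placebo partner, and no other pair of either genotype showed a difference of that size.

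The median over the 39 members in Fancd2-/- cells was -0.10, and 9 members lay above 0. Pair by pair the median was 0.01, -0.06 and -0.34, and the third pair holds the placebo library that stood apart. Without that pair the median was 0.01 and 21 of 39 were above 0, so the sign of the median turned. No member was higher with oxymetholone in all 3 pairs, against 9.39% of all genes, and 3 (Sod1, Hmox1 and Idh1) were lower in all 3, against 11.6% of all genes. The groups overlapped for all 39 members, while 6.82% of all genes did not overlap.

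In wild-type KSL cells 0 of 39 members were called, where 0% of all genes were, and 1 had an unadjusted p under 0.05, against 2.68% of all genes. DESeq2 and limma voom also called 0 members. That member was Gstm1, a glutathione transferase. It was at 169.5, 152.9 and 150.2 CPM on oxymetholone and at 198.5, 190.9 and 173.0 CPM on placebo. All 3 libraries on oxymetholone lay below all 3 on placebo, as in 8.52% of all genes in either direction, and the log2 change was -0.25 ± 0.12 (adjusted p = 0.999, edgeR). In Fancd2-/- cells Gstm1 did not follow this order, at 187.9, 146.7 and 140.7 CPM on oxymetholone and 167.3, 174.6 and 129.7 CPM on placebo.

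Srxn1 followed in wild-type KSL cells at 41.0, 33.1 and 42.5 CPM on oxymetholone and 51.5, 38.3 and 48.8 CPM on placebo. Each oxymetholone library was lower than its partner, and the groups overlapped, with a log2 change of -0.25 ± 0.12. Hmox1 was at 2.17, 3.11 and 1.78 CPM on oxymetholone and 2.58, 5.19 and 2.44 CPM on placebo, with a log2 change of -0.50 ± 0.40. Hmox1 and Idh1 were the 2 members with a lower value on oxymetholone in all 6 pairs of both genotypes, against 2.38% of all genes. The count is thus near the background. For Idh1 the first wild-type pair was almost a tie, with a log2 ratio of 0 to 3 decimals. In the second Fancd2-/- pair its log2 ratio was -0.03. Idh1, the cytosolic NADPH-producing isocitrate dehydrogenase, had a log2 change of -0.13 ± 0.12 and Gsta4, a transferase for lipid peroxidation products, of -0.14 ± 0.14. These 4 had an adjusted p of 0.999 in edgeR. The median of the 39 was 0.02. Of the members, 4 were higher and 6 lower in all 3 pairs, against 14% and 15.4% of all genes.

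The difference between the genotypes in their oxymetholone effect was tested in the same fit. It was called for 0 of 39 members, where 0% of all genes were called, and 0 members had an unadjusted p under 0.05 in edgeR, DESeq2 or limma voom. Gstm1 had the smallest p, with a log2 difference of 0.26 ± 0.16, followed by Slc7a11 at -1.0 ± 0.69, Prdx1 at -0.31 ± 0.24, Txn1 at -0.24 ± 0.20 and Prdx3 at -0.22 ± 0.20 (adjusted p = 0.953 for each, edgeR). Of the 57 other pathway genes tested, 0 were called for oxymetholone in either genotype or for the interaction.

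**Figure D3:**
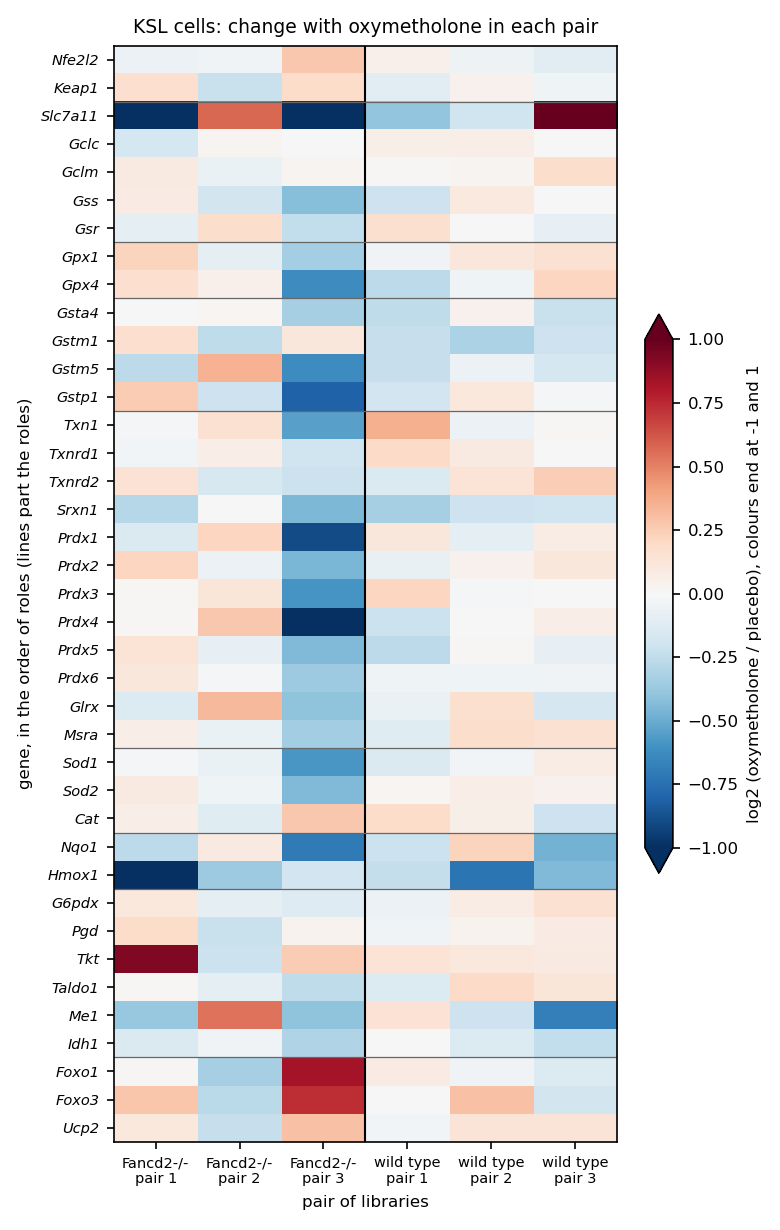
Rows are the 39 genes by role, columns the 6 pairs of KSL libraries, and the colour is log2 of CPM on oxymetholone over CPM on placebo. The third Fancd2-/- pair is mostly blue, with a median of -0.34, and Hmox1 is blue in all 6 pairs.

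The largest differences among the 39 genes were those between cell populations. In wild-type mice on placebo, scaled by TMM, 25 members rose and 12 fell in erythroblasts relative to KSL cells, and 2 were not called (edgeR, adjusted p under 0.05), where 91% of all 12538 genes tested were called, 37.2% higher and 53.7% lower. Groups did not overlap for 37 members, against 91.7% of all genes. Gclc, Gclm, Gpx1, Gpx4, Prdx2, Prdx3 and Foxo3 were among the genes that rose, and Gstm1, Prdx5, Prdx6 and Foxo1 among those that fell. The median log2 change was 0.77 for the members and -0.67 for all genes. Scaling to total counts, as in the deposited normalised matrix, moved the median of all genes to -2.02 and that of the members to -0.60, with 14 members higher and 24 lower. With length and GC trends removed these medians were 0.40 and 1.80, with 27 members higher and 9 lower. The members' median exceeded that of all genes by 1.43, 1.41 and 1.40 log2 units in these 3 scalings. A change from TMM to total counts shifts all genes nearly alike. The likeness of the first 2 differences was thus fixed in advance and is no test. In all 8 fits that used the full set of libraries, 14 members were called higher and 9 lower. The other 14 calls changed sign or were lost in at least 1 fit. The share of all genes called the same way in all 8 fits was not counted, so these counts have no background beside them. In bulk samples, fewer cells of a type and less RNA per cell cannot be told apart. Erythroblasts came from single mice and KSL cells from pools, so population and pooling cannot be told apart either.

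**Figure D4:**
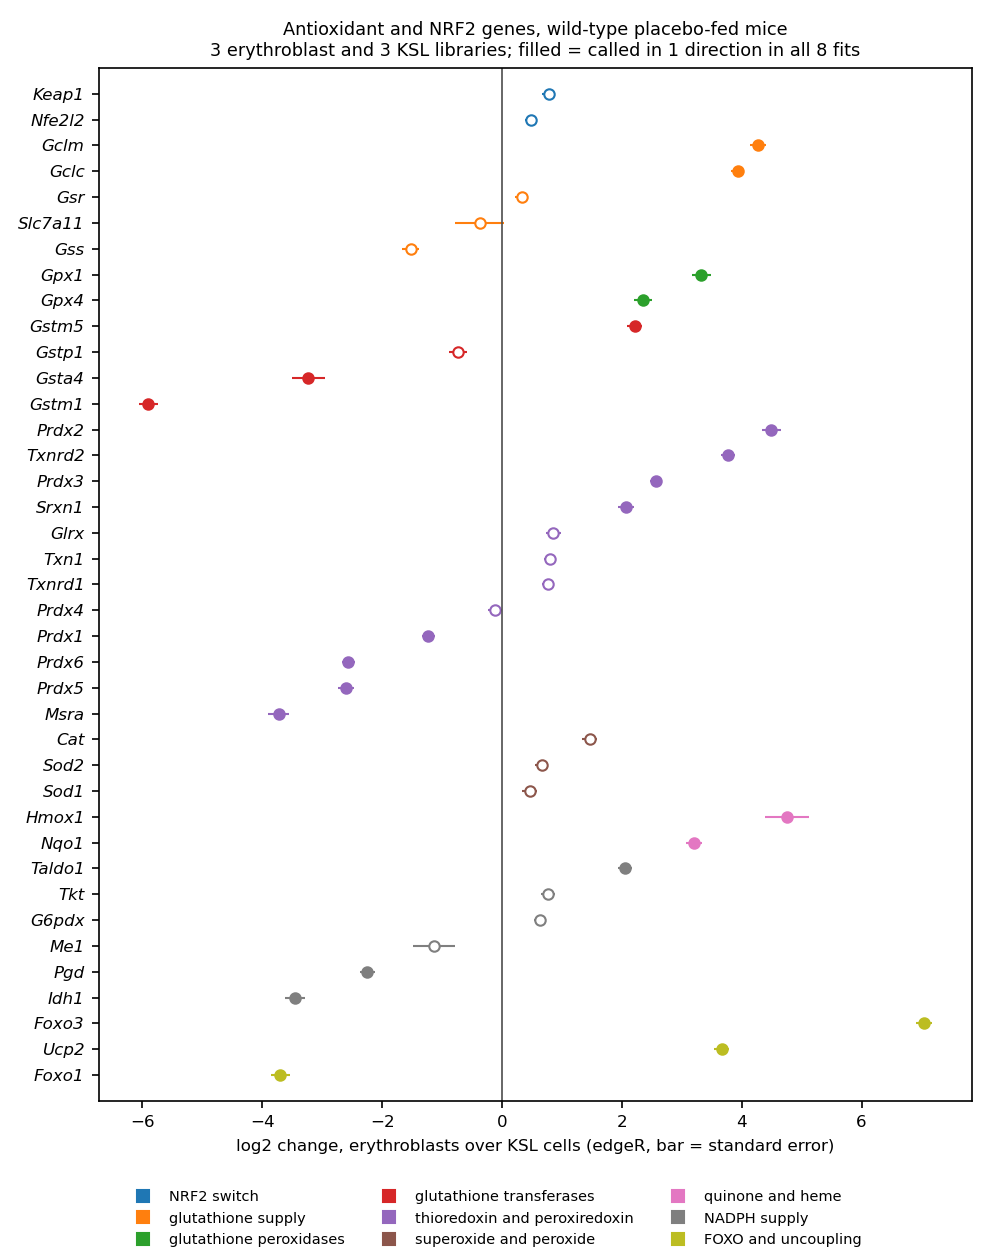
Log2 change of each gene in erythroblasts over KSL cells (x axis) with its standard error, grouped and coloured by role, from 3 libraries each of wild-type mice on placebo. Values run from -5.90 for Gstm1 to 7.05 for Foxo3, and filled points are the 23 genes called in the same direction in all 8 fits.

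Among the switch genes, Nfe2l2 averaged 166.8 ± 3.52 CPM in erythroblasts and 119.5 ± 5.74 CPM in KSL cells, and Keap1 averaged 213.7 ± 1.62 CPM in erythroblasts and 124.6 ± 12.4 CPM in KSL cells (SD, n = 3 each). Their log2 changes of 0.48 ± 0.10 and 0.78 ± 0.10 turned to -0.89 and -0.59 on the deposited normalised matrix, so no direction is given for either.

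Glutathione is built by glutamate-cysteine ligase, which sets the rate, and then by glutathione synthetase. Gclc, the catalytic subunit of the ligase, was at 713.3, 689.6 and 657.9 CPM in erythroblasts and at 45.9, 44.0 and 45.2 CPM in KSL cells, a log2 change of 3.93 ± 0.11. Gclm, its modifier subunit, was at 1199, 1088 and 1130 CPM in erythroblasts and at 59.8, 65.7 and 50.2 CPM in KSL cells, a log2 change of 4.28 ± 0.13. Both subunits rose together with no overlap (adjusted p = 3.44e-14 and 9.97e-14, edgeR), and in all 8 fits. Gss, glutathione synthetase, averaged 11.8 ± 0.88 CPM in erythroblasts and 34.0 ± 4.01 CPM in KSL cells (SD, n = 3 each), with a log2 change of -1.53 ± 0.14 that was 0.01 with length and GC trends removed. Gsr, which regenerates glutathione, had a log2 change of 0.33 ± 0.11 that turned to -1.05 on the deposited matrix, and it was no longer called without the third erythroblast library (adjusted p = 0.0767, edgeR). Slc7a11 averaged 0.725 CPM in erythroblasts and 0.861 CPM in KSL cells and was not called (adjusted p = 0.394, edgeR).

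Both glutathione peroxidases, which are selenoproteins, rose in erythroblasts in all 8 fits. Gpx1, the cytosolic enzyme that removes hydrogen peroxide, averaged 10550 ± 941 CPM in erythroblasts and 1049 ± 166 CPM in KSL cells (SD, n = 3 each), a log2 change of 3.33 ± 0.15. Gpx4, which reduces lipid peroxides, averaged 103.8 ± 6.01 CPM in erythroblasts and 20.01 ± 4.83 CPM in KSL cells (SD, n = 3 each), a log2 change of 2.36 ± 0.15. Per kilobase of transcript, Gpx1 had the highest level of the 39 in both populations, at 7592 CPM per kb in wild-type placebo erythroblasts and 1992 CPM per kb in wild-type placebo KSL cells, each scaled within its own population. Behind it came Prdx2 at 1763 and Ucp2 at 872 CPM per kb in erythroblasts, and Sod1 at 552 and Prdx6 at 270 CPM per kb in KSL cells.

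The glutathione transferases, which couple glutathione to electrophiles, split by gene. Gstm1 was at 1.76, 1.998 and 2.07 CPM in erythroblasts and at 124.4, 122.0 and 102.9 CPM in KSL cells, a log2 change of -5.90 ± 0.16 (adjusted p = 2.8e-14, edgeR). Gsta4 fell by 3.23 on the log2 scale (SE 0.28), while Gstm5 rose by 2.22 (SE 0.13). Gstp1 had a log2 change of -0.73 ± 0.15, which turned to 0.51 with length and GC trends removed. Reads of transferases with near-identical relatives, as in the Gstm and Gstp families, could be split by the counting, so these values are uncertain.

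Within the thioredoxin and peroxiredoxin set of 12, 7 members were higher, 4 lower and 1, Prdx4, not called (-0.12 ± 0.12). Prdx2, the abundant peroxiredoxin of red cells, was at 4574, 4255 and 4180 CPM in erythroblasts and at 221.7, 198.5 and 156.1 CPM in KSL cells, a log2 change of 4.50 ± 0.15. Prdx3 and Txnrd2, both mitochondrial, rose in all 8 fits. Prdx3 was at 497.8, 538.1 and 475.1 CPM in erythroblasts and at 89.1, 82.8 and 82.5 CPM in KSL cells (2.57 ± 0.10). Txnrd2, the mitochondrial thioredoxin reductase and a selenoprotein, was at 378.1, 360.0 and 358.0 CPM in erythroblasts and at 30.1, 27.1 and 22.8 CPM in KSL cells (3.77 ± 0.12).

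In the same set, Txn1, Txnrd1 and Glrx turned sign with the scaling. Txn1 and Txnrd1, the cytosolic reductase, had log2 changes of 0.81 ± 0.10 and 0.77 ± 0.10, which turned to -0.57 and -0.60 on the deposited matrix. Glrx, glutaredoxin, had a log2 change of 0.86 ± 0.13, which turned to -0.51 there. Srxn1 rose by 2.07 on the log2 scale (SE 0.13), in all 8 fits.

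Of the set, 4 members fell in all 8 fits. Prdx6, which reduces phospholipid peroxides, was at 74.8, 64.8 and 63.1 CPM in erythroblasts and at 433.9, 384.8 and 378.7 CPM in KSL cells, a log2 change of -2.56 ± 0.11. Msra, which repairs oxidised methionine, was at 6.35, 5.51 and 4.13 CPM in erythroblasts and at 81.0, 67.9 and 61.5 CPM in KSL cells, a log2 change of -3.73 ± 0.17. Prdx5, found in mitochondria, peroxisomes and cytosol, fell by 2.61 (SE 0.13). Prdx1 fell by 1.23 (SE 0.11), opposite to Prdx2, its closest cytosolic relative.

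The word TGACNNNGC, the core of the antioxidant response element, was searched on both strands in the 1000 bases before the start of each gene in mouse build mm9. It was found for 16 of 39 members (41.0%) and for 29.9% of 20319 gene windows. The related word TGACTCA was found for 7 of 39 members (17.9%) and for 14.7% of windows, and TGACTCAGC contains both. No occurrence was found in the windows of Txn1, Nqo1 and Hmox1, which says only that these letters are not there. Gclm and Prdx2, which were higher in erythroblasts, and Prdx1, which was lower, each held an occurrence, starting 169, 350 and 133 bases before the gene's start. These 3 were chosen after their values were seen, and the 41 bases around it are shown to set the words of genes that moved in opposite directions side by side. They read 5′ to 3′ on the gene's strand, which is the plus strand for all 3, with the word in capitals as its reverse complement. They lie at chr3:121948325-121948365, chr8:87493181-87493221 and chr4:116358055-116358095, upstream of the first exon.
Gclm: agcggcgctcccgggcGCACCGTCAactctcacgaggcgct
Prdx2: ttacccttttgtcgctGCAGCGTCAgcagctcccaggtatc
Prdx1: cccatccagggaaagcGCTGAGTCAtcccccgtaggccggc
The word in Prdx1 is the one of the 3 that also holds TGACTCA.

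The genes for superoxide and peroxide removal had smaller log2 changes than the peroxidases. Catalase (Cat) averaged 331.1 ± 52.3 CPM in erythroblasts and 119.7 ± 11.5 CPM in KSL cells (SD, n = 3 each), a log2 change of 1.47 ± 0.13 that was 0.09 and not called on the deposited matrix. Sod2 and Sod1 had log2 changes of 0.67 ± 0.11 and 0.46 ± 0.13, which turned to -0.71 and -0.89 there.

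Nqo1, a quinone reductase and a textbook NRF2 target, was at 114.4, 108.7 and 103.6 CPM in erythroblasts and at 13.4, 9.88 and 12.5 CPM in KSL cells, a log2 change of 3.20 ± 0.13 (adjusted p = 2.89e-12, edgeR). Hmox1 was at 50.2 to 82.8 CPM in erythroblasts and at 1.45 to 3.32 CPM in KSL cells, a log2 change of 4.75 ± 0.37 (adjusted p = 8.45e-06, edgeR). Hmox1 is also a gene of heme-recycling macrophages. The 7 monocyte and macrophage markers, all detected, summed to 39.2 to 53.0 CPM in those erythroblasts and 30.0 to 40.5 CPM in KSL cells. All erythroblast libraries lay above all KSL libraries for 4 of these 7 markers (C1qa, Vcam1, Emr1 and Mrc1) and below them for 1 (Cd14), and the groups overlapped for Csf1r and Cd68. C1qa, for example, was at 28.3, 15.5 and 12.6 CPM in erythroblasts and 2.53, 2.51 and 1.99 CPM in KSL cells, and Cd14 at 0.586, 0.480 and 0.248 CPM in erythroblasts and 4.46, 3.81 and 2.69 CPM in KSL cells. Across the 3 erythroblast libraries, Hmox1 was at 82.8, 57.95 and 50.2 CPM. C1qa, Cd68 and Cd14 had the same order, while Vcam1, Emr1, Mrc1 and Csf1r did not. The part of macrophage RNA in the Hmox1 difference was not tested.

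NADPH-supplying enzymes also split. Taldo1, transaldolase of the non-oxidative pentose phosphate branch, rose by 2.05 on the log2 scale (SE 0.12). Pgd, which carries the later NADPH-producing step of the oxidative branch, fell by 2.25 (SE 0.12), and Idh1 fell by 3.45 (SE 0.17), all in all 8 fits. Idh1 averaged 3.00 ± 0.20 CPM in erythroblasts and 33.1 ± 3.38 CPM in KSL cells (SD, n = 3 each). G6pdx, which starts the oxidative branch, and Tkt had log2 changes of 0.64 ± 0.11 and 0.77 ± 0.11, which turned to -0.73 and -0.60 on the deposited matrix. Me1, cytosolic malic enzyme, averaged 0.875 CPM in erythroblasts and 1.94 CPM in KSL cells, with a log2 change of -1.14 ± 0.35 that was -0.34 and not called with length and GC trends removed.

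The FOXO genes moved in opposite directions. Foxo3 was at 1050, 916.8 and 953.8 CPM in erythroblasts and at 7.05, 7.27 and 7.90 CPM in KSL cells, a log2 change of 7.05 ± 0.13 (adjusted p = 2.14e-15, edgeR). Foxo1, its close relative, was at 2.93, 2.88 and 2.48 CPM in erythroblasts and at 33.9, 37.4 and 36.1 CPM in KSL cells, a log2 change of -3.70 ± 0.16 (adjusted p = 4.55e-12, edgeR). Neither pair of groups overlapped, and both calls held in all 8 fits. Ucp2, a mitochondrial carrier of the uncoupling protein family, was at 5818, 5551 and 5730 CPM in erythroblasts and at 459.3, 482.1 and 407.4 CPM in KSL cells, a log2 change of 3.66 ± 0.13.

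Of the 57 other pathway genes tested between the populations, 25 rose, 29 fell and 3 were not called, with a median of -0.34, where 91% of all genes were called (37.2% higher, 53.7% lower) with a median of -0.67. The share called is thus near the background. The 6 with the smallest p were called in the same direction in all 8 fits. Blvrb, which reduces biliverdin made by heme oxygenase, was at 2121, 1907 and 1819 CPM in erythroblasts and 33.2, 26.7 and 23.4 CPM in KSL cells. Mgst3, a microsomal glutathione transferase, was at 797.5, 763.9 and 662.2 CPM in erythroblasts and 12.1, 10.4 and 7.63 CPM in KSL cells. Both are thus about as far apart as the strongest members, with log2 changes of 6.13 and 6.18. Pir, an iron-binding protein, rose by 5.09, Glrx5, a mitochondrial glutaredoxin for iron-sulfur cluster assembly, by 4.46, and Mthfd2, a mitochondrial folate enzyme, by 4.33. Gsto1, an omega-class transferase, fell by 4.85.

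Within wild-type erythroblasts, oxymetholone was compared with placebo for 37 members, since Me1 and Slc7a11 were under the low-count filter. None was called, where 0% of all genes were, and 0 had an unadjusted p under 0.05, against 1.27% of all genes. DESeq2 called 0 and limma voom 0, with 1 member under an unadjusted p of 0.05 in limma voom. Txnrd1 was at 160.6, 146.4 and 154.7 CPM on oxymetholone and at 162.2, 170.2 and 162.3 CPM on placebo. G6pdx was at 59.2, 60.1 and 55.2 CPM on oxymetholone and at 61.1, 64.3 and 61.7 CPM on placebo. For these 2 members all oxymetholone libraries lay below all placebo libraries, as in 5.88% of all genes in either direction, with log2 changes of -0.10 ± 0.06 each. Hmox1 was at 33.9, 22.4 and 29.7 CPM on oxymetholone and at 50.6, 35.3 and 30.6 CPM on placebo (-0.43 ± 0.25), with overlap, while macrophage markers summed to 29.7 to 44.2 CPM on oxymetholone and 39.2 to 53.0 CPM on placebo. Foxo1 (0.27 ± 0.22) and Gstp1 (-0.17 ± 0.13) completed the 5 smallest p, each adjusted p being 0.999 in edgeR. The median over the members was 0.00.

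In whole bone marrow on placebo there was 1 library of each genotype and no test. One of 39 members was past 1.5-fold, against 1.4% of the 11819 genes with at least 100 counts in 1 of the libraries. It was Me1, at 32 counts in Fancd2-/- and 14 counts in wild-type marrow, a ratio of 2.14 with a 95% interval of 1.11 to 4.35 for counting error only. Its counts are below that minimum. Hmox1 was at 32.0 CPM in Fancd2-/- and 22.2 CPM in wild-type marrow, a ratio of 1.44 (1.36 to 1.52). Macrophage markers summed to 429.9 CPM in Fancd2-/- and 388.5 CPM in wild-type marrow, and the part of macrophage RNA in that ratio was not tested. Foxo3 was at 21.05 CPM in Fancd2-/- and 29.35 CPM in wild-type marrow, a ratio of 0.717 (0.678 to 0.758). Erythroid markers summed to 27590 CPM in Fancd2-/- and 28770 CPM in wild-type marrow, and the part of erythroid RNA in the Foxo3 ratio was not tested.

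The members with the smallest p for genotype in KSL cells had ratios near 1. Txn1 had a ratio of 1.01 (0.996 to 1.03), at 216.5 CPM in Fancd2-/- and 213.4 CPM in wild-type marrow, and Prdx1 a ratio of 1.01 (0.983 to 1.04). The median ratio of the 39 was 1.01, and 22 were above 1. Neutrophil granule markers summed to 111700 CPM in Fancd2-/- and 105400 CPM in wild-type marrow.

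**Figure D5:**
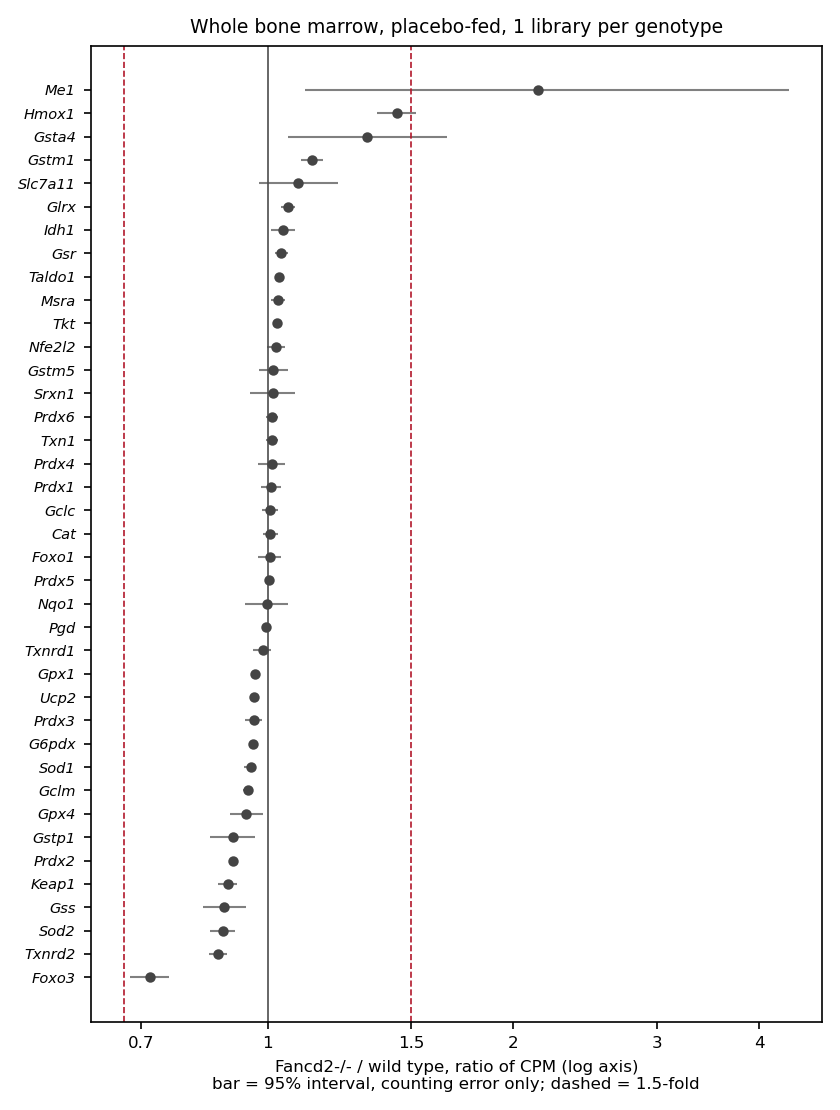
Ratio of CPM in Fancd2-/- over wild-type whole marrow on a log axis, from 1 library per genotype, with 95% intervals that cover counting error only. Me1 is the 1 gene beyond 1.5-fold, at 2.14, and Foxo3 is the lowest, at 0.717.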

How the data were processed

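The data were RNA sequencing of KSL cells, erythroblasts and whole marrow. Per the labels and design text, TruSeq libraries were sequenced as 51-base reads, and per the submitters' processing notes the tools were Bowtie and edgeR and the build was mm9. Their versions, whether counting used strand, and how multi-matching reads were treated are not stated in these sources. The deposited counts are raw whole numbers per transcript row, 26005 rows in 20 libraries. The authors also deposited a normalised matrix of rounded values, treated as a score and used as an alternative with 1 added before log2. The column taken as Fancd2-/- placebo KSL replicate 1 has a name that differs by 1 character from its sample title, and was matched through the list of pairs in the design text.

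The members and lists were chosen with earlier results of these data known. For each symbol the row with the largest total was kept. Tests were fitted over all genes with edgeR 4.0.16 (robust quasi-likelihood, TMM, filterByExpr), R 4.3.3, with Benjamini-Hochberg adjustment and a threshold of 0.05. The 12 KSL libraries shared a fit, with group means for genotype and a block for the pair in tests of oxymetholone. The pairs come from the design text, by a shared flow cytometer setting. Deviations from group means correlated within pairs at 0.134, -0.061 and 0.214 in Fancd2-/- and 0.114, 0.258 and 0.131 in wild-type cells. Erythroblasts, and erythroblasts with KSL cells, were fitted separately. The separation of biological samples within a group rests on the labels, and p-values measure the spread between these libraries. Alternatives were median-of-ratios scaling, no filter, DESeq2 1.42.0, limma 3.58.1 with voom and sample quality weights, summed transcript rows, removal of length and GC trends, limma on the deposited matrix, the pair as a correlated block or no block, and libraries left out. Named genes were every called member, the 5 members with the smallest p where fewer than 5 were called, and up to 6 called genes of the other pathway lists. All members were accounted for by role, and values in every library were given for up to 12 called members. The fits were tested on simulated counts. Whole marrow ratios carry exact binomial 95% intervals for counting error only. Reference sequence was mm9 (NCBIM37), and gene starts were those of the deposited transcript rows kept. Transcript lengths and GC content came from GENCODE M1. Protein sequences were not used here.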

Additional observations from a re-analysis of the deposited data

How the results depend on the processing

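For Fancd2-/- against wild type on placebo, edgeR called 170 genes, DESeq2 815, limma voom 1412 and the fit with length and GC trends removed 433, with 19 to 236 when libraries were left out. Members called were 0, 2, 2 and 1 in these fits, and 0 in each left-out fit. The share of called genes that were higher was 39.4% in edgeR, 57.8% in DESeq2, 66.5% with trends removed and 16.8% on the deposited matrix. On oxymetholone, edgeR called 17 genes, DESeq2 86, limma voom 44 (with 1 member), trends removed 26, and 27 without Fancd2-/- placebo replicate 3, with 2 to 8 when libraries were left out. Over both diets edgeR called 492 genes, DESeq2 1120, limma voom 2354, trends removed 962 and the duplicateCorrelation replicate block 184, with 132 to 993 when libraries were left out. Members called were 1, then 2 in DESeq2, 4 in limma voom, 0 on the deposited matrix and 0 with the replicate block, and 0 to 4 when libraries were left out. The share higher was 40.2% in edgeR, 51.6% in DESeq2, 59.5% with trends removed, 23.4% on the deposited matrix and 28.3% with the replicate block.

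For oxymetholone in Fancd2-/- KSL cells, edgeR called 0 genes, 16 with no filter, 1 with summed rows and 0 to 12 with a pair left out. In wild-type KSL cells it called 0, with 1 under median-of-ratios scaling, 1 with no filter, 4 in DESeq2, 100 in limma voom and 1 without Fancd2-/- placebo replicate 3 and its partner. The interaction gave 1 gene in DESeq2 and 1 with summed rows. Members called were 0 in each of these fits. Fits with no replicate block for oxymetholone called 0 genes and 0 members in each genotype. The interaction of Prdx1, at -0.31, became 0.002 without the third Fancd2-/- pair and lay between -0.561 and 0.002 with a pair left out.

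Between erythroblasts and KSL cells, the share of called genes that were higher was 40.9% in edgeR, 55.8% with trends removed and 20.8% on the deposited matrix. Log2 changes that reversed on that matrix were G6pdx -0.732, Glrx -0.509, Gsr -1.05, Keap1 -0.59, Nfe2l2 -0.891, Sod1 -0.893, Sod2 -0.706, Tkt -0.598, Txn1 -0.565 and Txnrd1 -0.603. With trends removed, Gss was 0.012 and Gstp1 0.508. The matrix is scaled to total counts, and on it the median of all genes moved as well, from -0.666 in edgeR to -2.015. A cause particular to any of these genes was not tested. Whole marrow ratios counted 1 member past 1.5-fold with total counts as well. Slc7a11, with group means of 0.899 to 1.89 CPM in KSL cells, and Hmox1, with 2.35 to 4.71 CPM, rest on few reads in the shallower libraries. Members can share reads with processed pseudogenes or close relatives.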
